A study of Drosophila melanogaster with 18 samples.

Results

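The genes described here are 32 genes of the cell division cycle in Drosophila S2 cells, out of 17609 genes in the deposited count tables. They were taken by name from a written list and joined to the tables by gene identifier, by a rule that uses no measured value, though the list was drawn up with earlier results of these data known. They fall into 3 sets. The S phase set has 17 genes, namely the helicase subunits Mcm2, Mcm3, dpa (Mcm4), Mcm5, Mcm6 and Mcm7, the initiation factor Mcm10, the sliding clamp PCNA, the origin recognition subunits Orc1, Orc2, Orc4, Orc5 and Orc6, the licensing factor dup (Cdt1) with its inhibitor geminin, and both ribonucleotide reductase subunits, RnrL and RnrS. The G1/S set has 6 regulators, which are the cyclins CycD and CycE with their kinases Cdk4 and Cdk2, and the transcription factor E2f1 with its partner Dp. The mitotic set has 9 genes, which are the cyclins CycA, CycB and CycB3, their kinase Cdk1, the Cdc25 phosphatase stg (string), the kinases polo, aurA and aurB, and fzy (Cdc20), an activator of the anaphase-promoting complex.

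Before a cell copies its DNA, the origin recognition complex loads MCM helicases onto origins with the help of Cdt1, and geminin blocks a further round. Cyclin D and cyclin E kinases release E2F with its partner Dp from the retinoblastoma protein, and E2F then raises the transcription of replication genes. Entry into mitosis is driven by Cdk1 with its cyclins once string has removed the inhibitory phosphates, and Aurora and Polo kinases run the division that follows. In flies, string transcription is a main point of control of mitosis during development.

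S2 is an established Drosophila line of embryonic origin with traits of plasmatocytes, the macrophage-like blood cells of the fly. Polyadenylated RNA was sequenced in 18 libraries that form 9 groups of 2. The induced S2-Zld, S2-Grh and S2-Twi lines express the transcription factors Zelda, Grainy head and Twist after CuSO4 is added, and were harvested 48 h later. Their doses are printed as 1000 mM, 100 mM and 40 µM. The S2-Zld and S2-Grh lines were also sequenced without copper. Unmodified S2 cells (wild type) received 0, 40, 100 or 1000 µM CuSO4, so that each induced group has a wild type group with the same printed number. The time of 48 h holds for the copper-treated wild type cells as well. For libraries without copper the labels give no time, so whether culture times were equal is not known. Whether mM was meant in the labels of the S2-Zld and S2-Grh lines could not be settled, and doses were matched by the number alone. The labels do not say how the lines were made, whether a line is 1 clone, or whether replicates are separate cultures, so the p-values below measure only the spread between these samples. Each copper dose of wild type cells was deposited in the table of 1 factor, next to the same untreated wild type libraries, so dose and set of libraries cannot be told apart.

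The libraries held 10459648 to 28575923 counted reads, and the lowest count of any of the 32 genes in any library was 133, for Mcm7. Levels are CPM (counts scaled to library size with TMM factors), and all 32 genes passed the filter on low counts in each fit. The 3 factor genes were high in their own induced lines, with zld at 5679 and 5291 CPM, grh at 1064 and 998 CPM and twi at 1571 and 1895 CPM. The uninduced S2-Zld line already had zld at 213.5 and 324.5 CPM, and the uninduced S2-Grh line had grh at 47.1 and 37.7 CPM, against at most 15.3 CPM of zld and 0.827 CPM of grh in wild type cells. Of 10 plasmatocyte markers, all 10 were detected in all libraries, led by Pxn and srp, but NimC1 stayed at or below 2.81 CPM and He at or below 6.24 CPM. Of the markers of other cells, some were near 0 and others were not. Among crystal cell genes PPO1 and lz stayed at or below 0.531 and 0.573 CPM, but PPO2 reached 11.98 CPM. The lamellocyte gene PPO3 stood at 3.25 to 42.75 CPM, whereas atilla was at 0 in 13 libraries. The neuronal gene elav stood at 14.3 to 33.2 CPM and nSyb at or below 1.3 CPM. In muscle, Mf stood at 189.2 to 461.7 CPM and Mhc at or below 2.23 CPM, and the germline genes vas and bam stayed at or below 0.956 and 3.76 CPM. The squared difference between replicates was on average 1.98 times that of counting error in wild type cells at 1000 µM (chi-square per degree of freedom). It was up to 37.7 times in wild type cells at 40 µM and 18.9 times in the induced S2-Twi line. This ratio grows with read depth, and replicate 1 of wild type cells at 40 µM had the highest total count.

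Per kilobase of exon, the most abundant of the 32 mRNAs was PCNA with a median of 269.1 CPM per kb over the 18 libraries, followed by RnrS at 195.6, stg at 176.3, geminin at 173.4 and RnrL at 130.0 CPM per kb. The nucleotide supply, clamp and licensing inhibitor genes therefore stood well above the helicase and origin genes. Of the 6 helicase genes, 5 lay between 32.9 (Mcm3) and 58.1 (Mcm6) CPM per kb, and the origin recognition genes between 11.5 (Orc5) and 22.5 (Orc6) CPM per kb. Among G1/S regulators E2f1 was the highest at 60.4 CPM per kb. Cdk4 was the lowest at 13.6 CPM per kb apart from Cdk2, whose value of 9.26 has the limit given below. Among mitotic genes stg was the highest and CycB3 the lowest at 16.8 CPM per kb. The sixth helicase gene, Mcm7 (dm6 chromosome 3L, 8891596 to 8894310), had 4.98 CPM per kb. That value is uncertain, because 81.7% of its exonic bases overlap the antisense gene asRNA:CR45871, which had 0 CPM in each library, and the library kit does not keep strand. Cdk2 shares 43.9% of its exonic bases with CG17267 on the other strand, which had at most 0.299 CPM, and Mcm10 shares 13% with Ret, while aurA has the largest share among the others at 9.7%. Changes of Mcm7 and Cdk2 between groups are given, but their levels are not comparable with those of other genes.

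**Figure D1:**
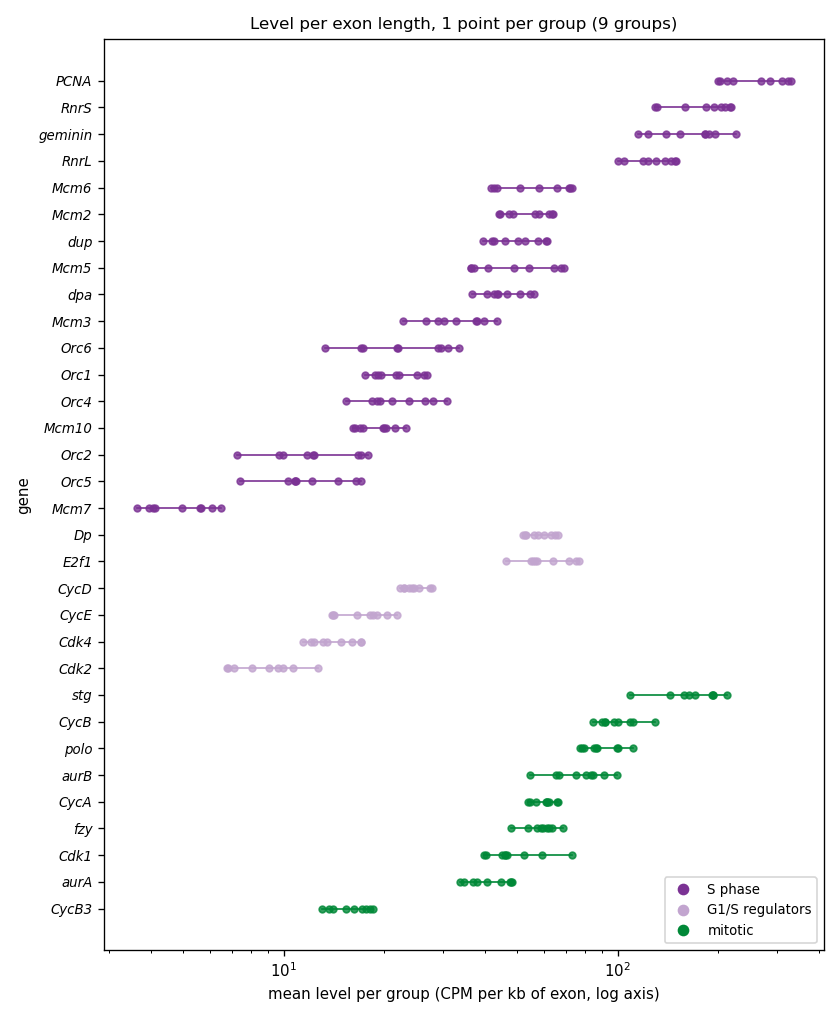
Mean level of each of the 32 genes in each of the 9 groups, in CPM per kb of exon on a log axis, with 1 point per group and a line over the range. PCNA, RnrS, stg, geminin and RnrL lie highest, and the lowest points are those of Mcm7, Cdk2, Orc2 and Orc5. The levels of Mcm7 and Cdk2 are not comparable with those of other genes, because much of their exons overlaps antisense genes.

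Summed over the 17 S phase genes, the induced S2-Zld line had 1725 and 1899 CPM and the uninduced one 2432 and 2596 CPM. The induced S2-Grh line had 2214 and 2182 CPM and the uninduced one 2553 and 2620 CPM. The induced S2-Twi line had 1993 and 1597 CPM. Wild type cells had 2494 and 2568 CPM without copper, 2097 and 1629 CPM at 40 µM, 1854 and 1827 CPM at 100 µM, and 2267 and 2245 CPM at 1000 µM. All 6 libraries without copper (2432 to 2620 CPM) thus lay above all 12 libraries with copper (1597 to 2267 CPM), and within the copper series of wild type cells the sums were lowest at 40 and 100 µM. The sums of the 9 mitotic genes followed the same split. They were 1533 and 1647 CPM in the induced and 1910 and 1868 CPM in the uninduced S2-Zld line, 1472 and 1566 CPM in the induced and 1906 and 1858 CPM in the uninduced S2-Grh line, and 1694 and 1375 CPM in the induced S2-Twi line. In wild type cells they were 1761 and 1785 CPM without copper, 1589 and 1185 CPM at 40 µM, 1581 and 1560 CPM at 100 µM, and 1673 and 1668 CPM at 1000 µM, so that the libraries with copper lay below those without. The 6 G1/S regulators did not, with 870.6 and 846.2 CPM in wild type cells at 40 µM against 754.6 and 794.1 CPM in untreated ones. In these bulk samples, fewer cells in S phase or mitosis and less of an mRNA per cell cannot be told apart.

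**Figure D2:**
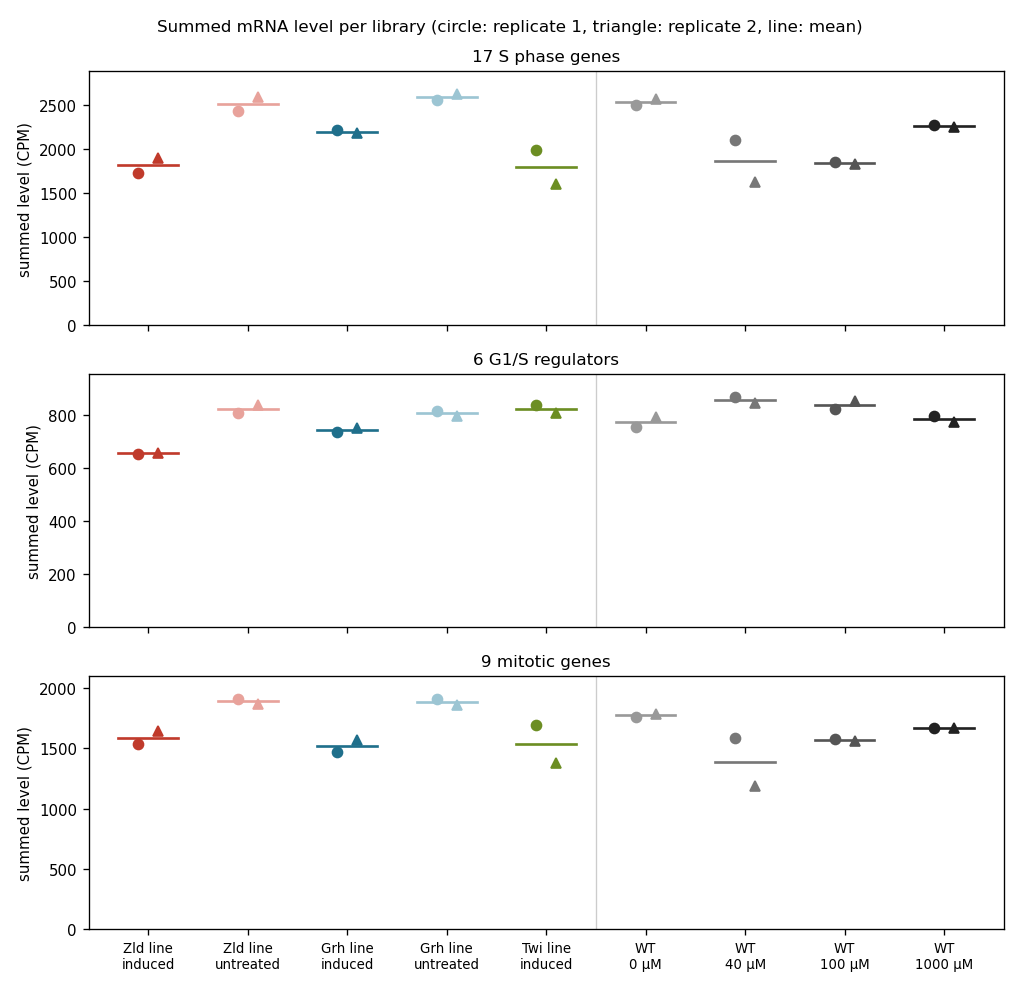
Summed level (CPM) of the 17 S phase genes, 6 G1/S regulators and 9 mitotic genes in each of the 18 libraries, with replicate 1 as a circle, replicate 2 as a triangle and the group mean as a line. Both libraries of wild type cells at 100 µM (1854 and 1827 CPM of S phase genes) lie below both untreated ones (2494 and 2568 CPM).

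Some of these genes differed between copper-treated and untreated wild type cells at each dose. Calls are at an adjusted p under 0.05 from edgeR's quasi-likelihood test with Benjamini-Hochberg adjustment over all genes tested. At 40 µM, 9 of the 17 S phase genes fell and none rose, E2f1 rose, and stg and aurA fell among the mitotic genes. Of all genes tested, 19.7% were called lower and 20.8% higher. The share of the mitotic genes that fell was thus near that of all genes. Orc6, an origin recognition subunit, had 17.2 and 15.9 CPM at 40 µM and 27.45 and 28.97 CPM without copper, and fell by 0.76 ± 0.099 on the log2 scale (edgeR adjusted p = 0.00159). Mcm5 had 104.3 and 74.4 CPM at 40 µM and 165.9 and 171.9 CPM without copper, a log2 change of -0.91 ± 0.20 (edgeR adjusted p = 0.0117). stg (chromosome 3R, 29251826 to 29255800) had 409.4 and 256.8 CPM at 40 µM and 561.9 and 616.7 CPM without copper, a log2 change of -0.81 ± 0.22 (edgeR adjusted p = 0.0273). The treated libraries lay below the untreated ones in all 3 genes, but for Mcm5 and stg the replicates at 40 µM lay far apart. Mcm6, another helicase subunit, had 140.9 and 96.4 CPM at 40 µM and 198.9 and 199.1 CPM without copper (log2 change -0.73 ± 0.20, edgeR adjusted p = 0.0273), and aurA had 59.1 and 47.0 CPM at 40 µM and 76.1 and 76.2 CPM without copper (log2 change -0.51 ± 0.13, edgeR adjusted p = 0.0178). E2f1 had 504.4 and 484.5 CPM at 40 µM, the highest group mean, and 338.1 and 369.8 CPM without copper, and rose by 0.49 ± 0.080 (edgeR adjusted p = 0.00361). Cdk4, the kinase of cyclin D, had 26.6 and 29.6 CPM at 40 µM and 40.9 and 38.1 CPM without copper, and fell by 0.48 ± 0.095 (edgeR adjusted p = 0.00758). Dp had 169.0 and 169.5 CPM at 40 µM and 200.7 and 203.6 CPM without copper, and fell by 0.25 ± 0.065 (edgeR adjusted p = 0.022). E2f1 and Dp, which act as a pair, thus moved in opposite directions.

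The calls at 40 µM depended on single libraries. The 14 genes called became 1 without untreated replicate 1, 4 without untreated replicate 2 and 26 without replicate 1 at 40 µM (11 without replicate 2), and Orc6 was the gene called in every such fit. With all 18 libraries in 1 fit, 23 genes were called. Replicate 2 at 40 µM lay below replicate 1 in 17 of 17 S phase genes, with a summed level 0.777 times that of replicate 1, and a mitotic sum 0.746 times that of replicate 1. The induced S2-Twi line at the same dose had the same split, again with replicate 2 lower in 17 of 17 S phase genes and a summed level 0.801 times that of replicate 1. The summed plasmatocyte markers also differed between these replicates, with 2220 and 1376 CPM in wild type cells at 40 µM and 5709 and 4086 CPM in the induced S2-Twi line. Against untreated wild type cells (3621 and 3847 CPM), 3 of the 10 plasmatocyte markers rose and 4 fell at 40 µM. The lamellocyte sums were 3.25 and 4.19 CPM at 40 µM against 37.8 and 39.1 CPM without copper, the crystal cell sums 8.53 and 8.13 CPM against 3.62 and 2.34 CPM, and the muscle sums 378.8 and 458.0 CPM against 189.9 and 191.9 CPM. PPO3 fell and PPO2 and Mf rose (edgeR adjusted p = 1.82e-05, 0.00148 and 0.00056). The part of these markers was not tested.

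At 100 µM the whole S phase set was lower in wild type cells than without copper. All 17 S phase genes fell, by 0.26 to 0.79 on the log2 scale, together with 7 of the 9 mitotic genes and 3 of the 6 G1/S regulators, while E2f1 and CycD rose. Of all genes tested, 27% were called lower and 25.4% higher. The median log2 change was -0.50 for the S phase genes and -0.37 for the mitotic genes, against -0.020 for all genes.

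Orc2, a subunit of the origin recognition complex (chromosome 3R, 13964885 to 13967075), had 19.4 and 20.3 CPM at 100 µM and 34.0 and 34.1 CPM without copper. Mcm5, a subunit of the replicative helicase (chromosome 3R, 10788524 to 10791150), had 104.6 and 95.7 CPM at 100 µM and 165.9 and 171.9 CPM without copper. PCNA, the clamp that tethers DNA polymerase, had 227.1 and 228.0 CPM at 100 µM and 321.6 and 341.9 CPM without copper. In all 3 genes both treated libraries lay below both untreated ones, by a gap several times the difference between replicates. The log2 changes were -0.79 ± 0.073 for Orc2, -0.77 ± 0.053 for Mcm5 and -0.56 ± 0.057 for PCNA (SE, n = 2 libraries each; edgeR adjusted p = 1.08e-07, 2.92e-09 and 4.2e-07). Mcm7, with the antisense overlap given above, had 9.03 and 8.78 CPM at 100 µM and 15.3 and 14.5 CPM without copper, a log2 change of -0.76 ± 0.10 (edgeR adjusted p = 7.43e-06), and the smallest change was that of Mcm10, at -0.26 ± 0.065.

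Cdk1, the mitotic kinase (chromosome 2L, 10384739 to 10386262), had 42.5 and 43.4 CPM at 100 µM and 68.9 and 59.3 CPM without copper, and fell by 0.59 ± 0.076 on the log2 scale (edgeR adjusted p = 5.52e-06). aurA, which matures spindle poles, had 58.9 and 57.2 CPM at 100 µM and 76.1 and 76.2 CPM without copper, and fzy had 98.3 and 93.4 CPM at 100 µM and 120.1 and 125.6 CPM without copper. CycB3, a mitotic cyclin, had 40.7 and 38.2 CPM at 100 µM and 51.5 and 50.1 CPM without copper (log2 change -0.38 ± 0.091, edgeR adjusted p = 0.00271). All 3 stood below the untreated libraries without overlap, and aurA fell by 0.41 ± 0.054 (edgeR adjusted p = 6.9e-06). String was not among the genes that fell: stg had 584.6 and 591.5 CPM at 100 µM and 561.9 and 616.7 CPM without copper, a log2 change of -0.017 ± 0.060, and CycA changed by 0.041 ± 0.051. Cdk2, the kinase of cyclin E, had 14.7 and 16.4 CPM at 100 µM and 25.6 and 23.6 CPM without copper, and fell by 0.67 ± 0.090 (edgeR adjusted p = 8.5e-06). CycE itself had 69.9 and 72.9 CPM at 100 µM and 90.9 and 101.1 CPM without copper, and fell by 0.44 ± 0.059 (edgeR adjusted p = 9.11e-06). Cdk4 had 30.8 and 28.8 CPM at 100 µM and 40.9 and 38.1 CPM without copper, and fell by 0.43 ± 0.070 (edgeR adjusted p = 6.82e-05). The mRNAs of these regulators moved with those of the replication genes, but that of E2f1 did not, and E2F activity was not measured. E2f1 (chromosome 3R, 21620304 to 21660871) had 445.1 and 477.4 CPM at 100 µM and 338.1 and 369.8 CPM without copper and rose by 0.37 ± 0.054 (edgeR adjusted p = 2.17e-05), while its partner Dp changed by -0.084 ± 0.049 and was not called. Leaving out any 1 library kept 28 or 29 of the 32 genes called. The call of CycD was lost without replicate 1 at 100 µM or without untreated replicate 2, and that of Mcm10 without replicate 2 at 100 µM. The summed plasmatocyte markers were 2009 and 2045 CPM at 100 µM against 3621 and 3847 CPM without copper, and of the 10 markers 3 rose and 6 fell. PPO3 fell, and PPO2, Mf and elav rose. The part of these markers in the result was not tested.

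At 1000 µM, the highest dose, the changes were fewer and more mixed. Of the S phase genes 9 fell and RnrS rose, and of the mitotic genes polo fell while CycA, Cdk1 and fzy rose; 13.9% of all genes tested were called lower and 15.3% higher. The share of the mitotic genes that fell was near that of all genes. The 3 genes that fell furthest were Orc2, Orc5 and Orc4 of the origin recognition complex, followed by Mcm5 at -0.47. Orc4 stood at 28.1 and 31.1 CPM at 1000 µM and 44.82 and 40.98 CPM without copper (log2 change -0.51 ± 0.099, edgeR adjusted p = 0.00247). Orc2 had 21.8 and 16.8 CPM at 1000 µM and 34.0 and 34.1 CPM without copper, a log2 change of -0.80 ± 0.11 (edgeR adjusted p = 0.000205), and Orc5 had 16.6 and 19.9 CPM at 1000 µM and 28.7 and 26.9 CPM without copper, a log2 change of -0.59 ± 0.10 (edgeR adjusted p = 0.00127). PCNA stood at 291.5 and 285.1 CPM at 1000 µM and was not called (log2 change -0.18 ± 0.065), nor were Mcm2, Mcm7, dup or geminin. Cdk1 had 75.7 and 82.4 CPM at 1000 µM, the highest of any group, and 68.9 and 59.3 CPM without copper, and rose by 0.33 ± 0.083 (edgeR adjusted p = 0.0127). Cdk4 had 30.3 and 30.4 CPM at 1000 µM and 40.9 and 38.1 CPM without copper, and fell by 0.36 ± 0.073 (edgeR adjusted p = 0.00339). CycA had 183.4 and 180.6 CPM at 1000 µM and 162.7 and 156.8 CPM without copper (log2 change 0.21 ± 0.060, edgeR adjusted p = 0.0209), and polo 258.0 and 248.3 CPM at 1000 µM and 301.0 and 293.9 CPM without copper (log2 change -0.21 ± 0.055, edgeR adjusted p = 0.014). None of these groups overlapped. E2f1 rose to 424.5 and 403.4 CPM at 1000 µM, against 338.1 and 369.8 CPM without copper (log2 change 0.25 ± 0.073, edgeR adjusted p = 0.0238). Without any 1 of the 4 libraries, the 16 calls fell to 5 or 6: 6 without replicate 1 at 1000 µM or untreated replicate 1, and 5 without replicate 2 at 1000 µM or untreated replicate 2. Orc2, Orc4, Orc5 and Mcm5 were called in all 4 of those fits, while E2f1, RnrS, CycA and fzy were not called in any. With library size alone in place of TMM factors, 3 genes rose and 12 fell in place of 5 and 11. In a fit of all 18 libraries no gene rose, so that the 5 calls of higher genes were lost, and 7 fell, namely Mcm5, Orc2, Orc4, Orc5, Orc6, Cdk4 and Dp. The summed plasmatocyte markers were 2923 and 2934 CPM at 1000 µM and 3621 and 3847 CPM without copper. Of the 10 plasmatocyte markers, however, 3 rose and 3 fell, with a median log2 change of 0.278. The neuronal gene elav fell. The part of these markers was not tested.

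Set against each other in a fit of all 18 libraries, a comparison added after the data were seen, wild type cells at 1000 µM had 7 S phase genes, 4 mitotic genes and 2 G1/S regulators higher than at 100 µM, and CycD lower; 18.7% of all genes tested were called higher and 22.9% lower. Cdk1 had 75.7 and 82.4 CPM at 1000 µM and 42.5 and 43.4 CPM at 100 µM, a log2 difference of 0.88 ± 0.15 (edgeR adjusted p = 0.000306). fzy had 136.0 and 137.5 CPM at 1000 µM and 98.3 and 93.4 CPM at 100 µM, a log2 difference of 0.51 ± 0.099 (edgeR adjusted p = 0.000563). These 2 genes and Mcm7 (log2 difference 0.62 ± 0.16) were called whichever of the 4 libraries was left out, whereas the count of 14 genes dropped to 7 without replicate 2 at 1000 µM and to 4 without any of the other 3. Between 100 and 40 µM, 7 genes differed, 3 of them higher at 100 µM and 4 lower, with 18.9% of all genes called higher and 18.5% lower. stg had 584.6 and 591.5 CPM at 100 µM and 409.4 and 256.8 CPM at 40 µM, a log2 difference of 0.82 ± 0.17 (edgeR adjusted p = 0.00228). The 40 µM libraries lay below both others. RnrL and CycE, lower at 100 µM by 0.33 and 0.36, and stg were called whichever library was left out. With library size alone 4 genes were higher and 3 lower. That count was 4 without replicate 1 and 3 without replicate 2 at 100 µM, and 12 without replicate 1 and 13 without replicate 2 at 40 µM.

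**Figure D3:**
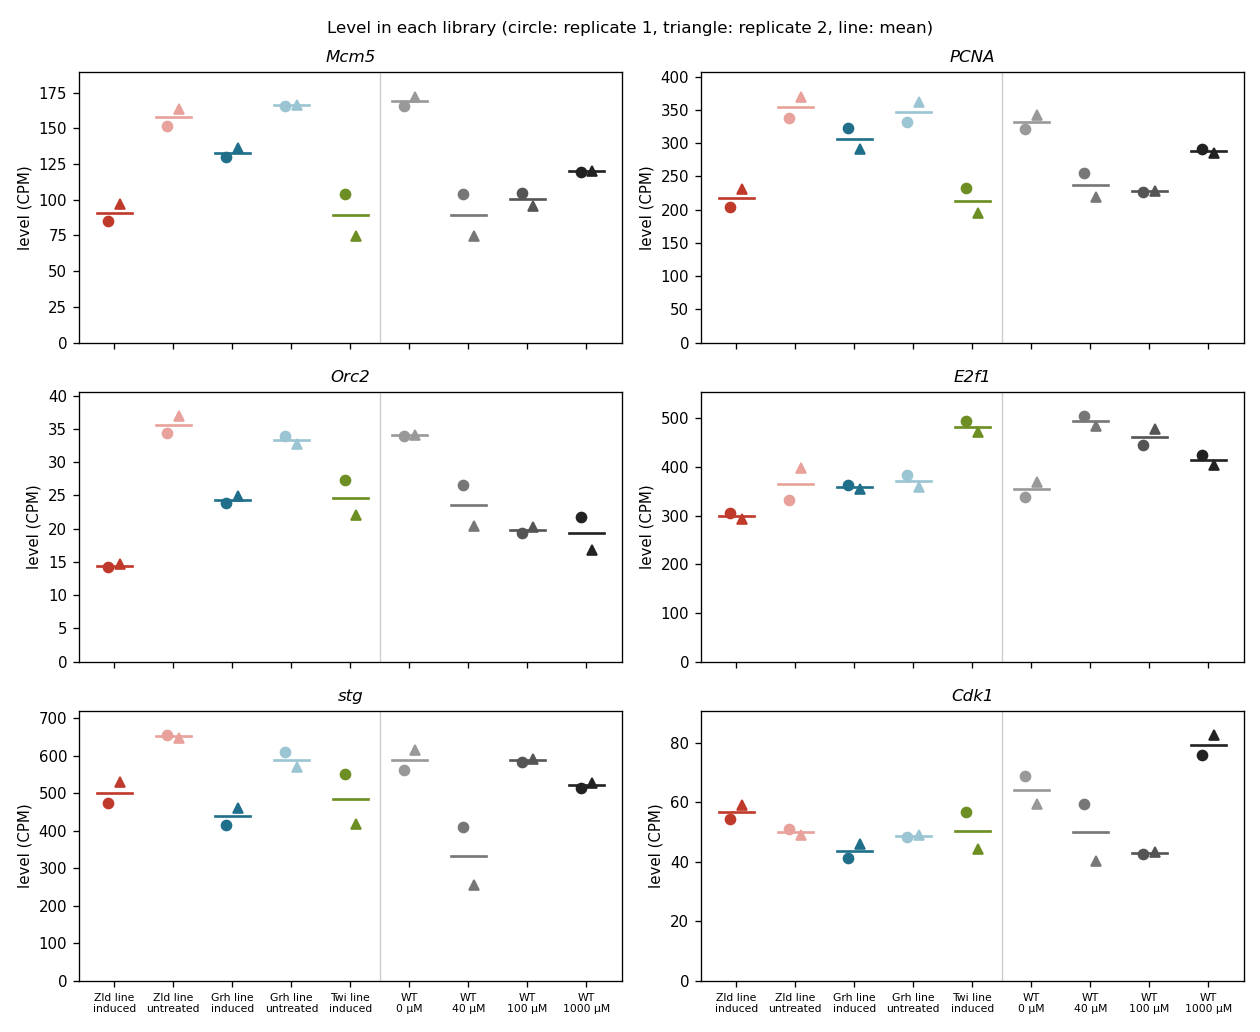
Level (CPM) of Mcm5, PCNA, Orc2, E2f1, stg and Cdk1 in each of the 18 libraries, with replicate 1 as a circle, replicate 2 as a triangle and the group mean as a line. Orc2 is lowest in the induced S2-Zld line (14.3 and 14.6 CPM), E2f1 has its highest mean in wild type cells at 40 µM (504.4 and 484.5 CPM) and Cdk1 in wild type cells at 1000 µM (75.7 and 82.4 CPM).

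Induction of Zelda was accompanied by lower replication genes against both of its controls. Against wild type cells at the same printed dose, 13 of the 17 S phase genes fell and none rose, by 0.23 to 0.53 on the log2 scale, with a median of -0.33 over the 17 genes against 0.019 over all genes; 18.4% of all genes tested were called lower and 20.1% higher. Of the 9 mitotic genes, 2 fell, Cdk1 and aurB, a share near that of all genes. Among the G1/S regulators E2f1 and CycE fell and Cdk4 rose. Mcm6, Mcm10, Orc4 and dup were not called, with log2 changes of -0.17, -0.077, -0.24 and -0.17.

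Mcm7 had 9.49 and 9.93 CPM in the induced S2-Zld line and 13.9 and 13.6 CPM in wild type cells at 1000 µM, a log2 change of -0.48 ± 0.12 (edgeR adjusted p = 0.00604). Orc2 had 14.3 and 14.6 CPM in the induced line and 21.8 and 16.8 CPM in wild type cells, a log2 change of -0.40 ± 0.12 (edgeR adjusted p = 0.021). In both genes the libraries did not overlap, though the wild type replicates of Orc2 differed. PCNA had 203.6 and 230.8 CPM in the induced S2-Zld line and 291.5 and 285.1 CPM in wild type cells at 1000 µM, a log2 change of -0.39 ± 0.066 (edgeR adjusted p = 0.0007). RnrL, the large subunit of ribonucleotide reductase, had 266.1 and 274.3 CPM in the induced line and 360.2 and 353.9 CPM in wild type cells, a log2 change of -0.39 ± 0.053 (edgeR adjusted p = 0.000153). Orc5 had 12.4 and 12.5 CPM in the induced line and 16.6 and 19.9 CPM in wild type cells, a log2 change of -0.53 ± 0.12 (edgeR adjusted p = 0.0034). Both libraries of the induced line lay below both wild type libraries in each gene. E2f1 had 306.0 and 293.0 CPM in the induced line and 424.5 and 403.4 CPM in wild type cells, and fell by 0.45 ± 0.073 (edgeR adjusted p = 0.00056). CycE had 65.6 and 75.4 CPM in the induced line and 82.9 and 84.7 CPM in wild type cells, and fell by 0.23 ± 0.082 (edgeR adjusted p = 0.0399). Cdk4 had 35.9 and 37.1 CPM in the induced line and 30.3 and 30.4 CPM in wild type cells, and rose by 0.28 ± 0.075 (edgeR adjusted p = 0.0106). Cdk4 alone of the regulators was called higher. Cdk1 had 54.3 and 59.1 CPM in the induced line and 75.7 and 82.4 CPM in wild type cells, and fell by 0.46 ± 0.086 (edgeR adjusted p = 0.00125). aurB, the kinase of the chromosomal passenger complex, had 75.6 and 79.6 CPM in the induced line and 99.1 and 98.2 CPM in wild type cells. It fell by 0.33 ± 0.060 (edgeR adjusted p = 0.00111). A fit of all 18 libraries called 8 of the 13 S phase genes, and the calls of Mcm3, dpa, Mcm5, geminin and RnrS were lost. Cdk4, CycE, E2f1, Cdk1 and aurB were still called in that fit. The 18 calls dropped to 11 without either wild type library at 1000 µM and to the same number when induced S2-Zld replicate 1 was left out. Mcm2, dpa, Mcm5, Mcm7, PCNA, RnrL, E2f1, Cdk1 and aurB were called in all 4 of the fits that left out 1 library, while the call of Orc5 was lost without replicate 2 of wild type cells and that of Cdk4 in 3 of the 4 as well as with library size alone and with DESeq2.

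Against the same line without copper, all 17 S phase genes were lower in the induced S2-Zld line, together with 4 G1/S regulators and 5 mitotic genes, and 1 mitotic gene was higher; 21.8% of all genes tested were called lower and 23.8% higher. Orc2 had 14.3 and 14.6 CPM in the induced line, the lowest of any group, and 34.4 and 36.9 CPM in the uninduced line, a log2 change of -1.27 ± 0.12 (edgeR adjusted p = 4.2e-06). Orc5 had 12.4 and 12.5 CPM in the induced and 24.9 and 24.1 CPM in the uninduced line, a log2 change of -0.94 ± 0.12 (edgeR adjusted p = 4.52e-05). Orc4 had 22.2 and 27.4 CPM in the induced and 43.7 and 46.5 CPM in the uninduced line, a log2 change of -0.84 ± 0.11 (edgeR adjusted p = 5.45e-05). The origin recognition genes other than Orc1 (-0.48) thus had the 4 largest changes of the set, Orc6 included at -0.83, and Mcm5 followed at -0.77. RnrS (-0.16), geminin (-0.26) and RnrL (-0.28) changed least. Leaving out 1 library left 22 to 27 of the 27 calls in number, and 15 of the 17 S phase genes were called in each such fit, geminin and RnrS being the exceptions.

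Among the regulators in that comparison, Cdk2 had 16.0 and 21.0 CPM in the induced and 30.3 and 28.1 CPM in the uninduced line, a log2 change of -0.63 ± 0.12 (edgeR adjusted p = 0.00136), and CycE had 65.6 and 75.4 CPM in the induced and 114.6 and 105.5 CPM in the uninduced line, a log2 change of -0.61 ± 0.082 (edgeR adjusted p = 9.22e-05). polo had 222.7 and 235.5 CPM in the induced and 335.6 and 325.1 CPM in the uninduced line, and fell by 0.49 ± 0.056 (edgeR adjusted p = 2.33e-05). stg had 474.2 and 529.8 CPM in the induced and 655.1 and 648.8 CPM in the uninduced line, and fell by 0.34 ± 0.067 (edgeR adjusted p = 0.00128). Dp had 166.6 and 172.5 CPM in the induced and 219.8 and 204.8 CPM in the uninduced line, and aurB 75.6 and 79.6 CPM in the induced and 90.6 and 99.8 CPM in the uninduced line (log2 changes -0.29 ± 0.059 and -0.26 ± 0.061, edgeR adjusted p = 0.00179 and 0.00379). These 6 genes were lower in both induced libraries than in both uninduced ones. CycA, at 191.2 and 195.7 CPM in the induced and 184.5 and 170.5 CPM in the uninduced line, was called higher by 0.16 ± 0.061 (edgeR adjusted p = 0.0495), a call lost under each of the 7 other normalizations, filters, models and sets of libraries tried. Cdk1 did not follow the other mitotic genes against this control, with 54.3 and 59.1 CPM in the induced and 50.9 and 48.9 CPM in the uninduced line (log2 change 0.22 ± 0.091, edgeR adjusted p = 0.0658). Of the 10 plasmatocyte markers, 8 fell against wild type cells and 7 against the uninduced line, and none rose. Their sums were 1736 and 2053 CPM in the induced line, against 3363 and 3479 CPM in the uninduced line and 2923 and 2934 CPM in wild type cells at 1000 µM. Mf was higher against both, PPO3 lower and elav higher against wild type cells, and bam higher against the uninduced line. The part of these markers in the results was not tested.

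Since these genes also differed with copper in wild type cells, the interaction of line and copper asks whether the difference between copper and no copper was larger in the S2-Zld line than in wild type cells. It was called lower for Mcm2, Mcm7, PCNA and RnrS among the S phase genes, for E2f1 and CycE among the regulators and for polo among the mitotic genes, and higher for none of the 32; 6.54% of all genes tested were called lower and 5.96% higher. PCNA changed by -0.67 with copper in the S2-Zld line and by -0.18 in wild type cells, a difference of -0.49 ± 0.093 on the log2 scale (edgeR adjusted p = 0.00461). Mcm2 changed by -0.50 in the S2-Zld line and by -0.076 in wild type cells, a difference of -0.43 ± 0.086 (edgeR adjusted p = 0.00667). E2f1 changed by -0.25 in the S2-Zld line and by 0.25 in wild type cells, a difference of -0.50 ± 0.10 (edgeR adjusted p = 0.00801). Mcm2 and PCNA were called whichever library was left out. The count of 7 genes was 2 without replicate 1 of wild type cells at 1000 or at 0 µM, 4 without replicate 2 at 1000 µM, 3 and 11 when induced replicate 1 or 2 was left out, and 16 and 12 when uninduced replicate 1 or 2 was; with all 18 libraries in the fit it was 3.

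**Figure D4:**
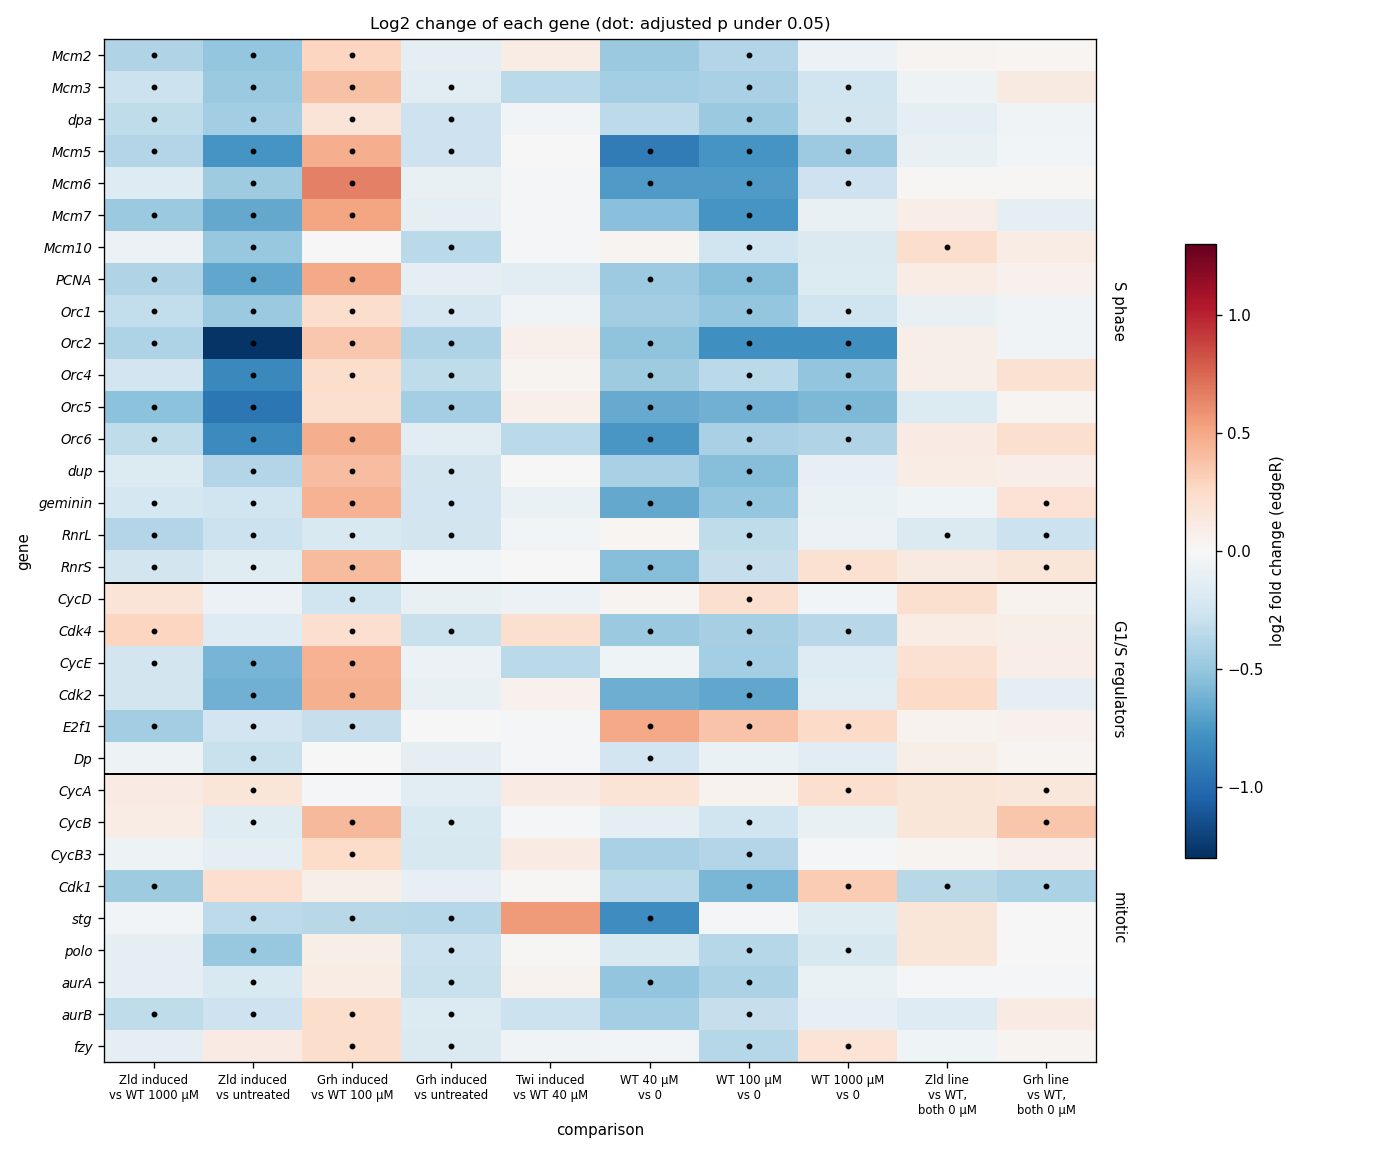
Log2 fold change of each of the 32 genes (rows) in 10 comparisons (columns), from edgeR, with red for higher and blue for lower in the group named first and a dot where the adjusted p is under 0.05. The S phase rows are blue in the comparisons of the induced S2-Zld line and of wild type cells at 100 µM, and mostly red where the induced S2-Grh line is set against wild type cells at 100 µM (14 of 17 higher).

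The induced S2-Grh line had higher replication genes than wild type cells at the same printed dose, and lower ones than the same line without copper. Against wild type cells at 100 µM, 14 of the 17 S phase genes rose and RnrL fell, with a median log2 change of 0.38 over the 17 genes against 0.040 over all genes. In addition 3 regulators and 4 mitotic genes rose, and CycD, E2f1 and stg fell. Against the same line without copper, 11 S phase genes, Cdk4 and 6 mitotic genes fell and none of the 32 rose. Of all genes tested, 32.5% were called higher and 27.8% lower in the first comparison, and 16.5% higher and 12% lower in the second.

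Mcm6, a helicase subunit, had 187.5 and 179.4 CPM in the induced S2-Grh line and 119.6 and 122.4 CPM in wild type cells at 100 µM, and rose by 0.66 ± 0.049 on the log2 scale (edgeR adjusted p = 4.26e-09). PCNA had 322.6 and 290.7 CPM in the induced line and 227.1 and 228.0 CPM in wild type cells, and rose by 0.49 ± 0.057 (edgeR adjusted p = 1.18e-06). geminin had 202.6 and 185.7 CPM in the induced line and 147.2 and 148.8 CPM in wild type cells, and rose by 0.45 ± 0.050 (edgeR adjusted p = 5.54e-07). Mcm7 had 12.2 and 12.2 CPM in the induced line and 9.03 and 8.78 CPM in wild type cells, and rose by 0.51 ± 0.11 (edgeR adjusted p = 0.000465). The induced libraries stood above both wild type libraries in each gene. Without copper, the uninduced S2-Grh line had 197.1 and 209.0 CPM of Mcm6 and 331.4 and 362.0 CPM of PCNA, and untreated wild type cells had 198.9 and 199.1 CPM of Mcm6. RnrL went the other way, with 246.1 and 270.5 CPM in the induced line, the lowest group mean, and 310.7 and 304.2 CPM in wild type cells at 100 µM (log2 change -0.19 ± 0.051, edgeR adjusted p = 0.00326). That call was lost when induced replicate 1 was left out.

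Of the regulators, Cdk2 (19.8 and 21.7 CPM in the induced line, 14.7 and 16.4 CPM in wild type cells) rose by 0.46 ± 0.094 and CycE by 0.45 ± 0.060 (edgeR adjusted p = 0.000396 and 5.14e-06), CycE having 94.3 and 93.1 CPM in the induced line and 69.9 and 72.9 CPM in wild type cells at 100 µM. E2f1 had 362.9 and 354.6 CPM in the induced line and 445.1 and 477.4 CPM in wild type cells, and fell by 0.30 ± 0.054 (edgeR adjusted p = 0.000112). CycB had 320.1 and 342.0 CPM in the induced line and 263.2 and 252.1 CPM in wild type cells, and rose by 0.42 ± 0.051 (edgeR adjusted p = 1.57e-06). stg had 416.0 and 462.4 CPM in the induced line and 584.6 and 591.5 CPM in wild type cells, and fell by 0.36 ± 0.060 (edgeR adjusted p = 5.92e-05). Groups did not overlap in any of these. CycB3 was called higher by 0.24 ± 0.093 (edgeR adjusted p = 0.0415) although its libraries overlapped, with 48.4 and 40.0 CPM in the induced line and 40.7 and 38.2 CPM in wild type cells. The split of 21 genes higher and 4 lower depended on scaling: with library size alone, which moves the median of all genes to -0.12, 13 were higher and 6 lower, of which 10 S phase genes were higher and RnrL lower, and among mitotic genes CycB was higher and CycA and stg lower. Without any 1 library 22 to 24 genes were called, and a fit of all 18 libraries called 12. In that fit of all 18 libraries, 7 S phase genes were higher in place of 14, and RnrL was lower. Over all genes it called 4387 of 9521. Of the 10 plasmatocyte markers 3 rose and 5 fell, with sums of 2806 and 2740 CPM in the induced line and 2009 and 2045 CPM in wild type cells at 100 µM. Both lamellocyte markers rose, with sums of 63.7 and 51.9 CPM in the induced line and 21.2 and 22.5 CPM in wild type cells. Mf and nSyb also rose, and PPO2, bam and elav fell. The part of these cell types in the result was not tested.

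Against the uninduced S2-Grh line, the largest falls were those of Orc5, Orc2 and Mcm10 in the S phase set. Orc2 had 23.8 and 24.9 CPM in the induced and 33.9 and 32.8 CPM in the uninduced line, a log2 change of -0.40 ± 0.073 (edgeR adjusted p = 0.000407), and Orc5, with 18.3 and 22.7 CPM in the induced and 28.4 and 28.9 CPM in the uninduced line, changed by -0.44 ± 0.097 (edgeR adjusted p = 0.00206). Mcm10 had 43.9 and 48.2 CPM in the induced and 62.1 and 59.5 CPM in the uninduced line, a log2 change of -0.35 ± 0.067 (edgeR adjusted p = 0.000619). Mcm2, Mcm6, Mcm7, PCNA, Orc6 and RnrS were not called, with changes of -0.15 to -0.040. stg had 416.0 and 462.4 CPM in the induced and 609.8 and 570.2 CPM in the uninduced line (log2 change -0.37 ± 0.060, edgeR adjusted p = 0.000143). The kinase gene polo had 227.3 and 246.1 CPM in the induced and 303.3 and 292.6 CPM in the uninduced line, and aurA 60.0 and 59.4 CPM in the induced and 77.0 and 74.5 CPM in the uninduced line (log2 changes -0.28 ± 0.050 and -0.29 ± 0.055, edgeR adjusted p = 0.000358 and 0.000594). The groups did not overlap in these genes. Cdk4 was the only regulator that fell, with 33.7 and 32.5 CPM in the induced and 41.6 and 42.4 CPM in the uninduced line (log2 change -0.29 ± 0.070, edgeR adjusted p = 0.00445). The count of 18 genes was 14 to 21 with 1 library left out and 9 in a fit of all 18 libraries, 8 of the 18 and Dp. The summed plasmatocyte markers were 2806 and 2740 CPM in the induced and 2895 and 2498 CPM in the uninduced line, with 1 of the 10 higher and 4 lower. The lamellocyte sums were 63.7 and 51.9 CPM in the induced and 33.1 and 33.6 CPM in the uninduced line, where atilla rose, and elav fell; their part was not tested.

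The interaction of line and copper was called higher for 12 S phase genes in the S2-Grh line and lower for none, so that their difference between copper and no copper was less negative there than in wild type cells; 24.1% of all genes tested were called higher and 19.2% lower. Mcm6 changed by -0.092 with copper in the S2-Grh line and by -0.73 in wild type cells, a difference of 0.64 ± 0.069 (edgeR adjusted p = 1.01e-06). Mcm5 changed by -0.27 in the S2-Grh line and by -0.77 in wild type cells, a difference of 0.50 ± 0.075 (edgeR adjusted p = 3.46e-05). Cdk1 changed by -0.11 in the S2-Grh line and by -0.59 in wild type cells, a difference of 0.48 ± 0.11 (edgeR adjusted p = 0.00194). E2f1, CycD and stg differed in the opposite direction, E2f1 by -0.36 ± 0.077, CycD by -0.30 ± 0.092 and stg by -0.35 ± 0.085 (edgeR adjusted p = 0.00104, 0.0126 and 0.00282). The 19 calls were 16 to 20 with 1 library left out, but 2 (CycD and E2f1) in a fit of all 18 libraries.

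Induction of Twist was followed by no call among the 32 genes against wild type cells at 40 µM, where 6.25% of all genes tested were called higher and 4.27% lower with edgeR. Log2 changes ran from -0.36 to 0.55, with standard errors of 0.065 to 0.22. At an unadjusted p under 0.05 there were 3 genes. Orc6 had 13.4 and 12.4 CPM in the induced S2-Twi line and 17.2 and 15.9 CPM in wild type cells (log2 change -0.35 ± 0.10, edgeR adjusted p = 0.0758). CycE had 76.5 and 65.7 CPM in the induced line and 93.9 and 89.1 CPM in wild type cells (log2 change -0.36 ± 0.099, edgeR adjusted p = 0.0687). stg had 550.9 and 419.3 CPM in the induced line and 409.4 and 256.8 CPM in wild type cells (log2 change 0.55 ± 0.22, edgeR adjusted p = 0.181). The libraries of both groups did not overlap in any of the 3, though for stg the replicates lay further apart than the nearest libraries of the 2 groups. CycE was called lower by DESeq2, with a block for the replicate number and with no filter on low counts, and CycE and Orc6 lower and stg higher in a fit of all 18 libraries. Leaving out replicate 1 of wild type cells gave 1 call, stg higher by 0.92, and leaving out replicate 2 gave 2, Mcm3 and aurB lower. PCNA, for example, had 232.5 and 194.2 CPM in the induced line and 255.1 and 218.3 CPM in wild type cells, which overlap. Of the 10 plasmatocyte markers 2 rose and 4 fell, with sums of 5709 and 4086 CPM in the induced line and 2220 and 1376 CPM in wild type cells, and their part was not tested.

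Between the lines without copper and untreated wild type cells, 3 of the 32 genes were called for S2-Zld and 6 for S2-Grh. In the uninduced S2-Zld line Mcm10 was higher and RnrL and Cdk1 lower, with 10.4% of all genes tested called higher and 10.2% lower. In the uninduced S2-Grh line geminin, RnrS, CycA and CycB were higher and RnrL and Cdk1 lower, with 11.7% of all genes called higher and 12% lower. The share of the 32 genes called higher in S2-Grh was thus near that of all genes. Cdk1 had 50.9 and 48.9 CPM in the uninduced S2-Zld line and 68.9 and 59.3 CPM in untreated wild type cells, a log2 change of -0.36 ± 0.088 (edgeR adjusted p = 0.0143). In the uninduced S2-Grh line it had 48.2 and 49.0 CPM, a log2 change of -0.41 ± 0.075 (edgeR adjusted p = 0.00064). CycB had 392.0 and 395.1 CPM in the uninduced S2-Grh line and 311.3 and 298.3 CPM in untreated wild type cells, and rose by 0.36 ± 0.050 (edgeR adjusted p = 4.26e-05). RnrL had 341.0 and 329.0 CPM in the uninduced S2-Zld line, 318.0 and 316.6 CPM in the uninduced S2-Grh line and 382.5 and 383.0 CPM in untreated wild type cells (log2 changes -0.19 ± 0.052 and -0.28 ± 0.050, edgeR adjusted p = 0.0269 and 0.000455). Mcm10 had 67.3 and 63.8 CPM in the uninduced S2-Zld line and 55.3 and 57.0 CPM in untreated wild type cells (log2 change 0.23 ± 0.065, edgeR adjusted p = 0.0295). In the uninduced S2-Grh line geminin had 243.9 and 235.6 CPM, RnrS 346.4 and 346.9 CPM and CycA 183.6 and 174.0 CPM, against 207.0 and 209.2, 299.3 and 318.5, and 162.7 and 156.8 CPM in untreated wild type cells. Their log2 changes were 0.19 ± 0.049, 0.16 ± 0.048 and 0.15 ± 0.051 (edgeR adjusted p = 0.00725, 0.0251 and 0.0416). Both comparisons use the same 2 untreated wild type libraries. Of the 10 plasmatocyte markers 1 was higher and 4 lower in the uninduced S2-Zld line, and none higher and 6 lower in the uninduced S2-Grh line. Mf was higher in both, PPO3 lower in the S2-Zld line, and PPO2 and bam lower in the S2-Grh line, and their part was not tested. The 3 calls of the S2-Zld line were 0 without untreated wild type replicate 1, 1 without replicate 2 and 10 without replicate 2 of the line. The 6 calls of the S2-Grh line were 3 without replicate 1 of wild type cells or of the line, and RnrL, CycB and Cdk1 were called in each such fit. With library size alone, which moves the median of all genes to -0.10 in both, 0 genes were higher and 3 lower in the S2-Zld line, and 1 higher and 3 lower in the S2-Grh line.

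**Figure D5:**
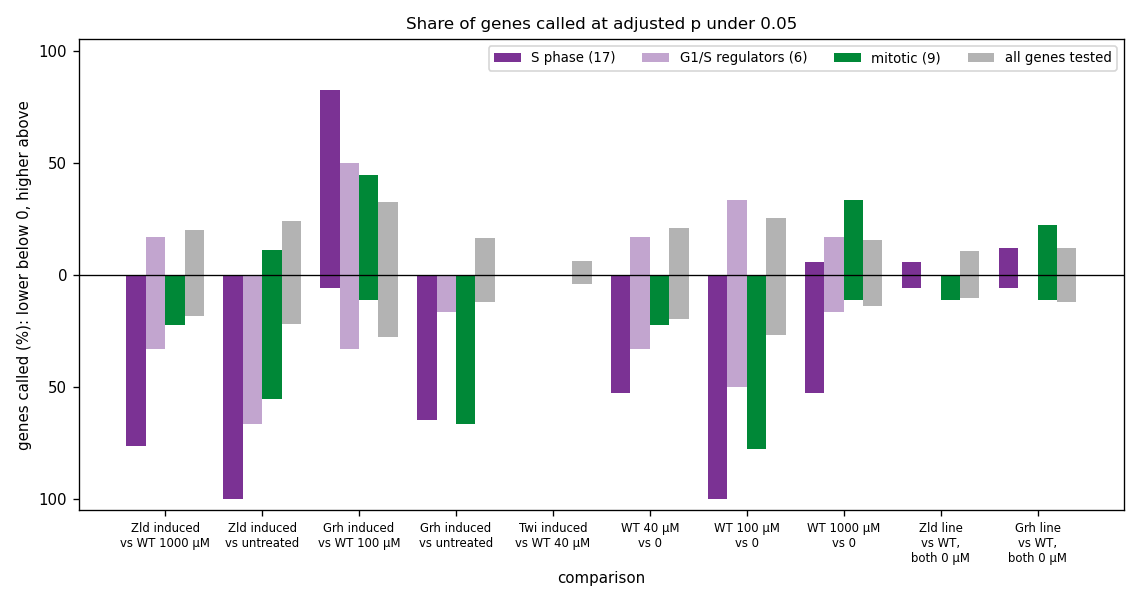
Share (%) of the 17 S phase genes, 6 G1/S regulators, 9 mitotic genes and all genes tested that were called higher (bars above 0) or lower (bars below 0) at an adjusted p under 0.05 in 10 comparisons. The S phase bar reaches 100% lower for the induced against the uninduced S2-Zld line and for wild type cells at 100 µM, where all 17 genes fell.

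The effects of the factors, each measured against wild type cells at its own dose, were set against each other in a fit of all 18 libraries. The Zelda effect was lower than the Grainy head effect in 13 of 17 S phase genes, in CycE, Cdk2 and aurB, and higher in CycD; 20.6% of all genes tested were called lower and 22% higher. PCNA differed by -0.84 ± 0.13 (edgeR adjusted p = 0.000108) and Mcm5 by -0.81 ± 0.21 (edgeR adjusted p = 0.00762). CycE, with a change of -0.23 for Zelda and 0.45 for Grainy head in the separate fits, differed by -0.64 ± 0.12 (edgeR adjusted p = 0.000482), and CycD, with 0.17 for Zelda and -0.26 for Grainy head, by 0.47 ± 0.13 (edgeR adjusted p = 0.00667). The 17 calls were 10 without replicate 1 of the induced S2-Zld line. In a fit of 14 libraries without both groups at 40 µM, chosen after the spread of those groups was seen, 27 genes were called. The wild type groups differ in dose, so a difference between factors and one between doses of copper cannot be told apart.

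Against the Twist effect, the Zelda effect was lower in Orc5, RnrL and E2f1, with 10% of all genes tested called lower and 11.1% higher. The share of the 32 genes called lower was thus near that of all genes. The Grainy head effect was higher than the Twist effect in Mcm3, Mcm6, PCNA, Orc6, CycE, CycB and aurB and lower in E2f1 and stg, with 18.5% called higher and 21.6% lower. stg differed by -0.96 ± 0.24 (edgeR adjusted p = 0.0063) and CycE by 0.76 ± 0.12 (edgeR adjusted p = 8.87e-05). With library size alone, 4 genes were higher and 5 lower in that second difference. The 3 calls between Zelda and Twist were 18 without replicate 1 of wild type cells at 40 µM, 9 without replicate 2 of the induced S2-Twi line and 1 without 5 of the other 6 libraries, namely replicate 1 of wild type cells at 1000 µM, either induced S2-Zld library, replicate 2 of wild type cells at 40 µM or replicate 1 of the induced S2-Twi line. The 9 calls between Grainy head and Twist were 18 without replicate 2 of wild type cells at 40 µM, 15 without replicate 1 of the induced S2-Twi line, and 5 without replicate 2 of wild type cells at 100 µM or of the induced S2-Grh line.

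Other genes of the same pathways came from 5 further lists. These lists, too, were chosen with earlier results known. Of 27 tested genes (28 matched of 31 listed) for DNA polymerases, clamp loading, primase, GINS and chromatin assembly, 15 fell and 1 rose in the induced S2-Zld line against wild type cells, and 22 fell and 1 rose against the uninduced line. There Prim1, the primase subunit, changed by -1.17 ± 0.16 and Ts, thymidylate synthase, by -0.97 ± 0.082 (edgeR adjusted p = 0.000124 and 2.29e-06). In the induced S2-Grh line 14 rose and 3 fell against wild type cells, Ts by 0.74 ± 0.053 and DNAlig1, the ligase, by 0.62 ± 0.059, while chif, the activator of the Cdc7 kinase, fell by 0.82 ± 0.057 (edgeR adjusted p = 2.33e-09, 9.27e-08 and 1.5e-09). Against the uninduced line 12 fell and none rose. In the induced S2-Twi line none was called with edgeR (3 at an unadjusted p under 0.05) or with DESeq2. In wild type cells with copper 9 of the 27 genes fell and 2 rose at 40 µM. At 100 µM 17 fell and 3 rose, and at 1000 µM 14 fell and none rose. The falls are 33.3%, 63% and 51.9% of the list, where 19.7%, 27% and 13.9% of all genes fell. The rises are 7.41%, 11.1% and 0%, where 20.8%, 25.4% and 15.3% of all genes rose. In the uninduced lines 2 were higher and 1 lower for S2-Zld, and 3 higher and 1 lower for S2-Grh. The higher genes are 7.41% and 11.1% of the list, where 10.4% and 11.7% of all genes were higher. The lower ones are 3.7% in each line, where 10.2% and 12% of all genes were lower. As shares of the 27 genes, 55.6% and 81.5% fell in the induced S2-Zld line against wild type cells and against the uninduced line, where 18.4% and 21.8% of all genes did. In the induced S2-Grh line 51.9% rose against wild type cells and 44.4% fell against the uninduced line, where 32.5% and 12% of all genes did. Median log2 changes of this list were -0.25 and -0.52 for the induced S2-Zld line against wild type and uninduced cells, and 0.18 and -0.16 for the induced S2-Grh line.

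Of 37 further mitotic genes (spindle checkpoint, condensin, kinesins, kinetochore and separase genes), 18 fell and 4 rose in the induced S2-Zld line against wild type cells, and 22 fell and 6 rose against the uninduced line. The falls are 48.6% and 59.5% of the list, where 18.4% and 21.8% of all genes fell. ncd, a minus-end kinesin, changed by -0.54 ± 0.064 against wild type cells and by -0.90 ± 0.065 against the uninduced line (edgeR adjusted p = 5.37e-05 and 5.81e-07), and the condensin genes glu and SMC2 by -0.77 and -0.75 against the uninduced line. In the induced S2-Grh line 13 rose and 7 fell against wild type cells, which is 35.1% and 18.9% of the list where 32.5% of all genes rose and 27.8% fell, so the share that rose was near that of all genes. Against the uninduced line 2 rose and 15 fell (40.5%, where 12% of all genes fell). There pav, a kinesin of cytokinesis, fell by 0.41 ± 0.056 (edgeR adjusted p = 2.13e-05). With copper in wild type cells 4 of the 37 rose and 8 fell at 40 µM. At 100 µM 6 rose and 16 fell, and at 1000 µM 10 rose and 14 fell. The falls are 21.6%, 43.2% and 37.8% of the list, where 19.7%, 27% and 13.9% of all genes fell. The share that fell at 40 µM was thus near that of all genes. The rises are 10.8%, 16.2% and 27%, where 20.8%, 25.4% and 15.3% of all genes rose. thr, which codes for a separase subunit, rose at each dose, by 0.88, 0.62 and 0.67 on the log2 scale (edgeR adjusted p = 0.000852, 1.81e-06 and 4.86e-05). None was called in the induced S2-Twi line with edgeR (2 at an unadjusted p under 0.05), and 1 with DESeq2. The uninduced lines had 12 higher and 2 lower (S2-Zld) and 5 higher and none lower (S2-Grh). The higher genes are 32.4% and 13.5% of the list, where 10.4% and 11.7% of all genes were higher. The lower ones are 5.41% and 0%, where 10.2% and 12% of all genes were lower.

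Of 16 further regulators around E2F, Myc, a growth regulator, rose in wild type cells by 0.93 ± 0.082 at 40 µM and 0.98 ± 0.054 at 100 µM and in the induced S2-Zld line by 1.11 ± 0.11 against wild type cells at 1000 µM (edgeR adjusted p = 0.000346, 2.02e-10 and 7.63e-05). dap (dacapo, the inhibitor of the CycE kinase) changed by -0.76 ± 0.20 at 40 µM and -0.54 ± 0.061 at 100 µM in wild type cells, and by 0.57 ± 0.062 in the induced S2-Grh line against wild type cells (edgeR adjusted p = 0.0228, 1.29e-06 and 4.09e-07). In all, 3 of the 16 rose and 4 fell in the induced S2-Zld line and 5 rose and 3 fell in the induced S2-Grh line against wild type cells. These are 18.8% and 25% of the list for S2-Zld, where 20.1% and 18.4% of all genes rose and fell, and 31.2% and 18.8% for S2-Grh, where 32.5% and 27.8% did, so the shares of this list that rose were near those of all genes. Against the uninduced lines 4 rose and 6 fell for S2-Zld (25% and 37.5%, where 23.8% and 21.8% of all genes did). For S2-Grh none rose and 2 fell (12.5%, where 12% of all genes fell). None was called in the induced S2-Twi line with edgeR (3 at an unadjusted p under 0.05) or with DESeq2. In each uninduced line 2 were higher and 2 lower, 12.5% each way and near the shares of all genes. At 40, 100 and 1000 µM in wild type cells 2, 4 and 4 rose and 5, 8 and 7 fell. The falls are 31.2%, 50% and 43.8% of the list, where 19.7%, 27% and 13.9% of all genes fell. The rises are 12.5%, 25% and 25%, where 20.8%, 25.4% and 15.3% of all genes rose. Of 9 checkpoint genes, Claspin, which binds stalled forks, moved most. It rose by 2.32 ± 0.13 at 40 µM and by 1.27 ± 0.082 at 100 µM in wild type cells, and was higher by 1.42 ± 0.088 in the uninduced S2-Zld line (edgeR adjusted p = 5.49e-05, 2.34e-09 and 1.15e-06). In the induced S2-Grh line it fell by 1.40 ± 0.085 against wild type cells at 100 µM, and in the induced S2-Zld line it rose by 0.55 ± 0.090 against wild type cells and fell by 0.62 ± 0.086 against the uninduced line (edgeR adjusted p = 4.61e-10, 0.000521 and 0.000113). Of 10 tested subunits and regulators of the anaphase-promoting complex, 4 fell and none rose in the induced S2-Zld line against wild type cells. Against the uninduced S2-Zld line 4 fell and 1 rose. The falls are 40% of the list in both, where 18.4% and 21.8% of all genes fell. At most 2 rose and at most 3 fell in any other of the 10 comparisons. In the induced S2-Grh line 20% rose and 30% fell against wild type cells, where 32.5% and 27.8% of all genes did. Against the uninduced S2-Grh line 20% fell, where 12% of all genes did. In wild type cells at 40, 100 and 1000 µM, 20%, 30% and 20% fell. Of all genes, 19.7%, 27% and 13.9% did. The rises were 20%, 20% and 10%, where 20.8%, 25.4% and 15.3% of all genes rose. In the induced S2-Zld line the 9 checkpoint genes had 2 higher and 1 lower against wild type cells (22.2% and 11.1%, where 20.1% and 18.4% of all genes were). Against the uninduced S2-Zld line 2 were higher and 5 lower (22.2% and 55.6%, where 23.8% and 21.8% of all genes were). In the induced S2-Grh line 2 were higher and 3 lower against wild type cells (22.2% and 33.3%, where 32.5% and 27.8% of all genes were). Against the uninduced S2-Grh line 0 were higher and 1 lower (11.1%, where 12% of all genes were lower). None was called in the induced S2-Twi line with edgeR (1 at an unadjusted p under 0.05), and 1 with DESeq2. In wild type cells at 40, 100 and 1000 µM, 33.3%, 33.3% and 0% of the checkpoint genes rose. Of all genes, 20.8%, 25.4% and 15.3% did. The falls were 22.2%, 33.3% and 22.2%, where 19.7%, 27% and 13.9% of all genes fell. In the uninduced S2-Zld line 22.2% were higher and 11.1% lower, where 10.4% and 10.2% of all genes were. For S2-Grh these were 0% and 11.1%, where 11.7% and 12% of all genes were.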

How the data were processed

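Per the submitters' processing notes, reads were processed with tools that include HISAT2 2.1.0, featureCounts, Subread 2.0 and DESeq2 on build dm6, and the authors deposited raw counts per gene in 3 tables. Repeated wild type columns were identical and used once. Libraries held 10459648 to 28575923 counts. Each table was fitted on its own with edgeR 4.0.16 in R 4.3.3 (filterByExpr, TMM factors, robust quasi-likelihood F test, 4 residual degrees of freedom, 3 for the S2-Twi table), and differences between factors on all 18 libraries (9 degrees of freedom). P-values were Benjamini-Hochberg adjusted over all genes tested, and calls are at 0.05. The fits were tested on simulated data for each induced line against wild type cells. Of 100 genes changed by 0.5 on the log2 scale, 90 were recovered for S2-Zld, 97 for S2-Grh and 59 for S2-Twi. Of 100 changed by 1, the numbers were 100, 100 and 96. Alternatives were RLE factors, library size alone, DESeq2 1.42.0, no filter on low counts, a replicate block, other sets of libraries and leaving out each library. Values per library are given for up to 3 called genes of each set with the largest change in each comparison. PCNA, RnrL, geminin, fzy and other genes outside that rule were added after their values were seen. The members and lists were chosen with earlier results of these data known.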

Additional observations from a re-analysis of the deposited data

Results flagged for a closer look

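The response to copper differed between line and wild type cells by an interaction test (edgeR) in 7 of the 32 genes for S2-Zld, with log2 differences of -0.57 for Mcm7, -0.49 for PCNA, -0.43 for Mcm2, -0.50 for E2f1, -0.43 for CycE and -0.28 for polo among them. For S2-Grh it differed in 19 genes, among them Mcm6 (0.64), Mcm7 (0.64), Mcm5 (0.50), Cdk2 (0.58), E2f1 (-0.36), CycE (0.36), Cdk1 (0.48), stg (-0.35) and fzy (0.19). Over all genes tested, 6.54% were called lower and 5.96% higher for S2-Zld, and 19.2% lower and 24.1% higher for S2-Grh.

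The effects of 2 factors, each against its own wild type dose, differed by a test of the difference in 17 genes for Zelda minus Grainy head, among them Mcm7 (-0.95), PCNA (-0.84), Mcm5 (-0.81), Cdk2 (-0.67), CycE (-0.64), CycD (0.47) and aurB (-0.52). For Zelda minus Twist, 3 genes differed, namely Orc5 (-0.60), RnrL (-0.35) and E2f1 (-0.43). For Grainy head minus Twist, 9 genes differed, among them Orc6 (0.79), Mcm3 (0.68), Mcm6 (0.64), CycE (0.76), E2f1 (-0.33), stg (-0.96), aurB (0.46) and CycB (0.39). Over all genes tested, 20.6% were called lower and 22% higher for Zelda minus Grainy head. For Zelda minus Twist these shares were 10% and 11.1%, so the share of the 32 genes called lower was near that of all genes. For Grainy head minus Twist 21.6% were lower and 18.5% higher. The copper dose differs between the pairs, so factor and dose cannot be told apart in these differences.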

How the results depend on the processing

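Values here are counts of the 32 genes called, except where all genes are named, and the cause of each shift was not tested. A fit of all 18 libraries called 12 genes for the induced S2-Grh line against wild type cells and 9 against the uninduced line, 3 for S2-Twi, 23 for wild type cells at 40 µM and 7 at 1000 µM (all lower), 0 for the uninduced S2-Zld and 2 for the uninduced S2-Grh line, 3 for the S2-Zld and 2 for the S2-Grh interaction. Over all 9521 genes tested, that fit called 4387 and 1698 for the 2 S2-Grh comparisons and 1945 for S2-Twi. It called 4752 for wild type cells at 40 µM and 2122 at 1000 µM. The uninduced S2-Zld and S2-Grh lines had 1361 and 1184, and their interactions 764 and 2553. DESeq2 called 1 for S2-Twi and 1 for the uninduced S2-Zld line, where 1063 of 8909 and 1357 of 7675 genes were called over all genes. With no filter there were 1 for S2-Twi, 11 for the S2-Zld interaction and 8 for Zelda minus Twist, and with library size alone 7 for Zelda minus Twist. Over all genes, no filter gave 1419 of 14028, 1512 of 14037 and 2245 of 15152, and library size alone 2384 of 9521. Without both 40 µM groups, 27 genes differed for Zelda minus Grainy head. Replicate numbers were not shown to pair the samples. For each group the log2 difference between replicates 1 and 2 was taken, and these differences were correlated over genes between groups. Over 36 pairs of groups the correlations ran from -0.255 to 0.565, with 3 pairs over 0.1. The correlation of 0.565 was that of the induced S2-Twi line with wild type cells at 40 µM, the 2 groups compared for Twist. There, 2 pairs are too few to settle a pairing. With a replicate block, S2-Twi had 1 call (CycE lower), with 1404 calls over all genes against 937 without it, and wild type cells at 40 µM had 24.

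Leaving out each library in turn gave 11 to 20 calls for the induced S2-Zld line against wild type cells and 22 to 27 against the uninduced line, 22 to 24 and 14 to 21 for S2-Grh, and 0 to 2 for S2-Twi. It gave 1 to 26, 28 to 29 and 5 to 6 for wild type cells at 40, 100 and 1000 µM, 0 to 10 for the uninduced S2-Zld and 3 to 5 for the uninduced S2-Grh line. For the interactions it gave 2 to 16 (S2-Zld) and 16 to 20 (S2-Grh). For the factor differences it gave 10 to 19 (Zelda minus Grainy head), 1 to 18 (Zelda minus Twist) and 5 to 18 (Grainy head minus Twist). For the added dose comparisons it gave 3 to 13 (100 against 40 µM) and 4 to 7 (1000 against 100 µM). No called gene changed direction under any alternative tried. Depth limits little here, since the lowest count of any of the 32 genes was 133, whereas 2 libraries per group limit each test.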
